A study of Mus musculus with 24 samples.

Results

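Neural progenitor cells (NPC) were compared with the mouse embryonic stem cells (mESC) they were made from, in 3 lines that carry an expanded CAG repeat in the huntingtin gene. The comparison took every library labelled Q50, Q92 or Q111: 6 NPC and 6 mESC libraries, 12 of the 24 in the series, with 2 libraries for each line and cell type. Each of these lines is a heterozygous knock-in at Hdh, the mouse huntingtin gene (Htt), so every library also carries an allele without the expansion. The line titled Q92 is given 89 CAG in the growth protocol, and the name Q92 is kept here. The mESC were grown with leukemia inhibitory factor on a feeder layer of CF-1 mouse embryonic fibroblasts. The NPC were obtained by 7 days in N2B27 medium and then passaged on laminin in a medium with FGF and EGF. A wild type (WT), a huntingtin knockout (KO) and a short-repeat line (Q20), with 4 libraries each, serve as references for the change on differentiation. The design text calls the 2 libraries of a group biological samples, but no source says which cultures or clones they came from, so each line may be 1 clone and p-values measure only the spread between these libraries.

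The libraries hold short RNA from total RNA, counted per gene. A microRNA is cut from a hairpin and pairs with its targets mainly through bases 2 to 8, its seed, so microRNAs with 1 seed share many potential targets. Pluripotent mouse cells are known for the microRNAs of the Mir290 to Mir295 and Mir302 clusters, and neural progenitors for miR-9, miR-181 and let-7. Small nucleolar RNAs (snoRNAs) guide the modification of ribosomal and spliceosomal RNA, and Y RNAs are short noncoding RNAs bound by the Ro60 protein.

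Mature microRNAs of some of the genes that changed are shown first, from RefSeq with the GRCm38.p6 build, with the seed in capitals. The counts are per gene, so they do not show which mature form of a hairpin was present. The genes of the first 6 fell in NPC, and those of the last 3 rose.
miR-291a-3p: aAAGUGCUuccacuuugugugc
miR-295-3p: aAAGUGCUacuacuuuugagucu
miR-302b-3p: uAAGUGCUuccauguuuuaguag
miR-292a-5p: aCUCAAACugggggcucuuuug
miR-293-5p: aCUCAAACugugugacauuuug
miR-106a-5p: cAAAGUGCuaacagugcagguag
miR-181a-5p: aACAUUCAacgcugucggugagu
miR-9-5p: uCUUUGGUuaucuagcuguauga
let-7c-5p: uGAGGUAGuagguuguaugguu
The seed AAGUGCU is shared by miR-291a-3p, miR-295-3p and miR-302b-3p, and CUCAAAC by miR-292a-5p and miR-293-5p. The mature miR-181a-5p is the same from Mir181a-1 and Mir181a-2, and miR-9-5p the same from Mir9-1 and Mir9-3, so how the authors' counting divided such reads between the gene copies cannot be told apart from their expression.

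Total counts were 642384 to 2360434 in the mESC libraries and 342022 to 472732 in the NPC libraries, so mESC values are the more deeply counted. In mESC the libraries numbered 1 held at least 2134729 counts and those numbered 2 at most 1149003. The replicates differed more in mESC than in NPC: the biological coefficient of variation was 42.5% among mESC libraries and 9.41% among NPC libraries. Htt itself had 0 to 9 counts in a mESC library and 0 to 4 in an NPC library, which is too few to check the genotype. Levels are given as CPM, counts relative to the scaled library total. The cell labels held: the 14 listed ES-cell microRNA genes summed to 2140 to 2745 counts in each mESC library and to 1 count in all 6 NPC libraries together. In bulk RNA, fewer cells of a type and less RNA per cell cannot be told apart. The 36 listed radial glia and neural progenitor mRNAs summed to 128 to 330 counts in NPC and 23 to 111 in the deeper mESC libraries. Pax6 and Nes mRNAs were too thinly counted to test, as were the feeder fibroblast mRNAs, whose summed level was 5.52 to 24.1 CPM in NPC and 13.8 to 25.2 CPM in mESC.

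With the scaling used here, about as many genes passed as higher in NPC as passed as lower. Of 427 genes with enough counts to test, 215 (50.4%) passed at an adjusted p under 0.05 in edgeR's quasi-likelihood test with line as a covariate, 108 (25.3%) higher and 107 (25.1%) lower in NPC. The change was at least 2-fold for 90 of the higher and 90 of the lower genes. Of the 215, 209 changed in the same direction in all 3 lines. The genes were called from these same lines together, which favours such agreement, and it was not counted over all 427 genes. For 130 of the 215 the 6 NPC and 6 mESC libraries did not overlap, and over all 427 genes this held for 131 (30.7%). The call and the lack of overlap rest on the same values. The median log2 change over all 427 genes was -0.19. It was -0.07 with the size factors of DESeq2 and 0.04 with library totals, so small changes depend on the scaling. The balance of directions depends on it too: 115 genes were higher and 99 lower with DESeq2 size factors, and 111 and 84 with library totals. Fold changes are given on the log2 scale with their standard error (SE).

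**Figure D1:**
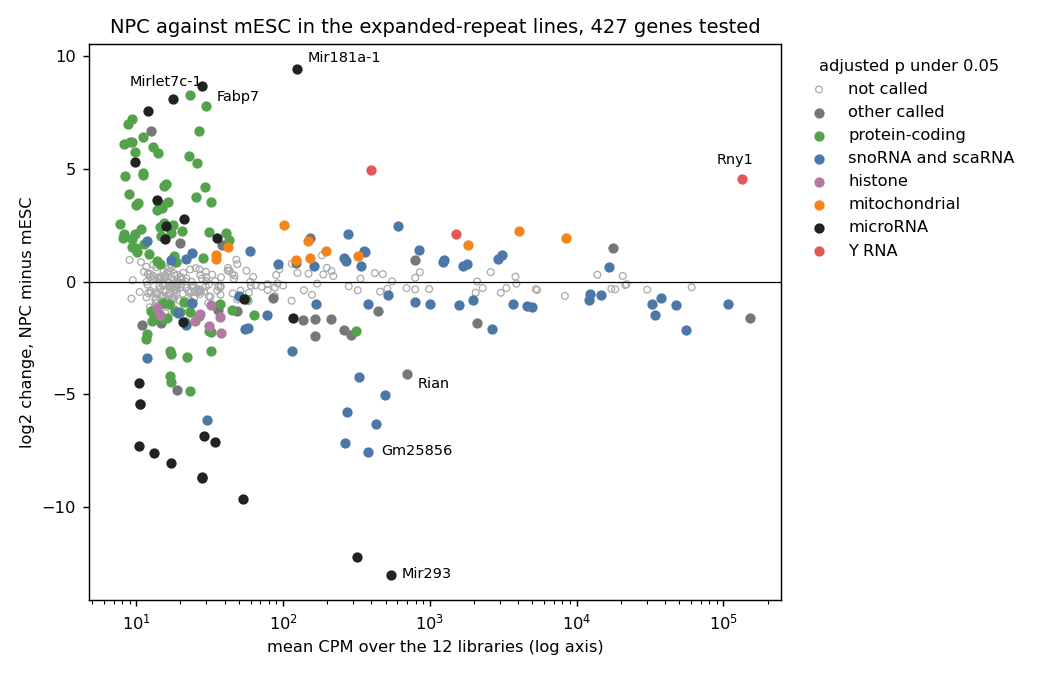
Log2 change from mESC to NPC (vertical axis) against the mean CPM over the 12 libraries (horizontal log axis). Each point is 1 of 427 genes, filled by RNA class where the adjusted p was under 0.05. MicroRNAs and protein-coding genes reach the ends of the scale at low levels, and at the far right Rny1 lies above 0 with a log2 change of 4.57 and Gm26917 below it with -1.63.

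Y RNAs made the largest difference to the make-up of the libraries. All 3 Y RNA genes tested rose, against 25.3% of all genes. Rny1, on chromosome 6, had 6454 CPM at the lowest, 9120 at the median and 17938 at the highest in mESC, and 165270, 206904 and 457621 CPM in NPC. The groups did not overlap, and the log2 change was 4.57 ± 0.33 (SE), which is 23.7-fold (edgeR, adjusted p = 5.65e-08). Rny3, its neighbour on chromosome 6, rose from 433 to 624 CPM in mESC to 1567 to 3953 CPM in NPC, a log2 change of 2.12 ± 0.23 (SE). The third gene, Gm26168, rose by a log2 change of 4.97, but it is 90.3% identical to Rny1 and had 2130 counts over the NPC libraries where Rny1 had 711598, and reads from the stretch they share cannot be told apart. The shared stretch is shown in capitals for both (bases that lie in a run of at least 12 found in both genes, GRCm38).
Rny1, chr6:47788069-47788180, minus strand: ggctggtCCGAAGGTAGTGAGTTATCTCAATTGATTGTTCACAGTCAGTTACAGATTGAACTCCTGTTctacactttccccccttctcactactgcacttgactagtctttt
Gm26168, chr6:122623547-122623658, plus strand: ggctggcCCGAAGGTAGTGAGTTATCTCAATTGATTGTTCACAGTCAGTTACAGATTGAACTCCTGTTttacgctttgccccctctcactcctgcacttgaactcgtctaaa

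As a share of all counts, Y RNAs held 27.2% ± 7.84 (SD, n = 6) in NPC and 0.972% ± 0.105 (SD, n = 6) in mESC. Every NPC library, at 20.9% to 40.6%, lay above every mESC library, at 0.871% to 1.14%. Box C/D snoRNAs took 34.3% of NPC and 46.4% of mESC counts, other snoRNA and scaRNA genes 18.3% and 24.1%, and loci that resemble ribosomal RNA 10.9% and 21.5%. Mitochondrial transcripts held 2.99% in NPC and 1.05% in mESC, and microRNA genes only 0.105% and 0.285%. In an exact permutation test with labels exchanged within lines (two-sided, 13 classes), 9 classes differed at an adjusted p of 0.0150 to 0.0267, where 0.00926 is the smallest unadjusted p the design allows. A share depends on all others: with the Y RNAs left out, box C/D snoRNAs held 47.2% of NPC and 46.9% of mESC counts (p = 0.815, same exact test), while the share of protein-coding genes, 7.12% against 4.39%, now differed (adjusted p = 0.0222, same exact test).

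**Figure D2:**
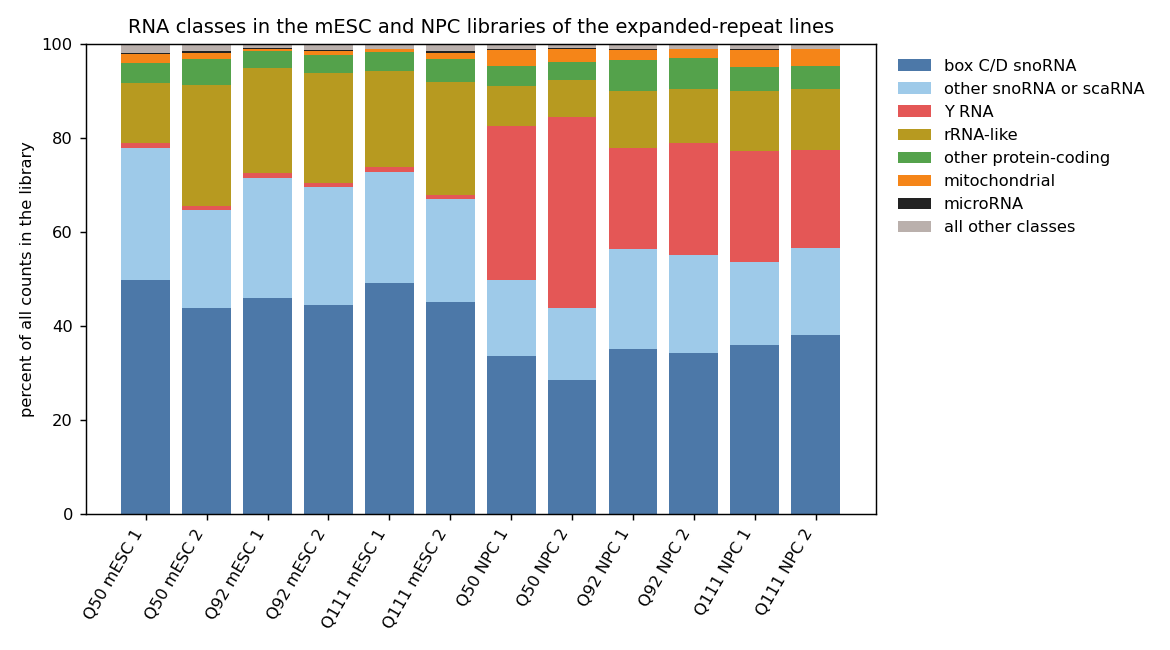
Percent of all counts (vertical axis) in each RNA class for the 6 mESC libraries, at the left, and the 6 NPC libraries, at the right. Y RNAs fill 20.9% to 40.6% of the NPC bars and 0.871% to 1.14% of the mESC bars.

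Of the 28 microRNA genes tested, 10 rose and 15 fell, 89.3% in all against 50.4% over all genes. Of these 28, 11 had no count in one cell type and 6 had only 1 to 3 counts there, so they passed the filter through the other cell type, where they had to be higher. Of the 14 ES-cell microRNA genes, 12 had a count, all 12 at a lower mean level in NPC, where 8810 of all 16827 genes with a count were lower. Of these genes, 5 passed the filter, through their mESC counts. Mir293, on chromosome 7, had 848 to 1714 counts in each mESC library (727 to 1586 CPM, median 1081) and 0 in each NPC library. Set against a floor of 3 counts over all NPC libraries, this is at least 933-fold lower (adjusted p = 4.51e-08 in edgeR). Mir292, from the same cluster, had 404 to 1073 counts in mESC and 0 in NPC, at least 450-fold lower. Mir295 and Mir291a were also at 0 in all NPC libraries, at least 80.4-fold and 22.6-fold lower. Their cluster lies on the strand opposite to annotated exons of Nlrp12, and whether the counting used strand is not given in the sources used here. Mir302b, on chromosome 3 within Larp7, had 23 to 227 counts in mESC and 1 count in all NPC libraries, a ratio of 188 (95% counting interval 33.5 to 7426). The untested Mir291b, Mir290a, Mir294 and Mir367 had 73, 53, 42 and 41 counts over the mESC libraries and 0 over NPC.

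Other clusters fell with them. Mir182 and Mir183, neighbours on chromosome 6 in a cluster known from sensory cells, had 50 to 95 and 30 to 116 counts in each mESC library and 0 in NPC, at least 45.4-fold and 44.7-fold lower. Mir106a, an X-linked member of the Mir17-92 family of cell-cycle microRNAs, had 21 to 100 counts in mESC and 0 in NPC, at least 31.8-fold lower. Of the 15 listed genes of that family, 7 had a count and Mir106a was the 1 tested. Mir7-1, Mir877 and Mir101b fell by smaller steps, 1.79, 1.60 and 0.80 on the log2 scale.

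Of the 22 neural microRNA genes, 14 had a count, 12 of them at a higher and 2 at a lower mean level in NPC. The lower ones, Mir124a-3 and Mir100, had 1 count each over NPC and 4 and 2 over mESC. Of the 12, Mir124a-2, Mir125b-2, Mir128-1, Mir128-2, Mir181b-2, Mir219a-1 and Mir338 had only 1 to 3 counts over NPC and 0 over mESC. Of all 16827 genes with a count, 8017 had a higher mean level in NPC. Mir181a-1 and Mir181a-2 held 668 and 156 of the 968 NPC counts of the list. The 4 members tested passed the filter through their NPC counts and so could only be higher. Mir181a-1, on chromosome 1, had 55, 64, 82, 91, 158 and 218 counts in the NPC libraries and 2 counts in all mESC libraries, a ratio of 995 (95% counting interval 274 to 8232; edgeR, adjusted p = 5.93e-10). Mir181a-2, on chromosome 2 within Nr6a1, had 11 to 50 counts in NPC and 0 in mESC, at least 155-fold higher. Mir9-1, on chromosome 3, had 6 to 16 counts in NPC and 0 in mESC, at least 64.5-fold higher, though the gene Gm25641 lies on its other strand. Mir9-3, on chromosome 7, had 55 counts over the NPC libraries and 3 over mESC, a ratio of 54.6 (interval 17.7 to 273). Gm3764, the long noncoding gene in which Mir9-1 lies, also rose, from 1 count over mESC to 69 over NPC. Mirlet7c-1, which codes for a let-7 microRNA, had 11 to 25 counts in NPC and 0 in mESC, at least 97.3-fold higher. The 12 let-7 genes held 16 to 37 counts in an NPC library and 2 to 4 in a mESC library, and Mirlet7c-1 was the 1 tested.

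Other microRNA genes rose by smaller steps. Mir30a rose by 2.79 ± 0.47 (SE) and Mir351 by 3.62 ± 0.65 (SE) on the log2 scale, with 4 to 40 and 6 to 22 counts in an NPC library. Mir335, which lies within the imprinted gene Mest, rose by 2.48 ± 0.52 (SE), and Mest itself by 2.52 ± 0.66 (SE). Mir99b and Mir16-1 rose by 1.92 and 1.89.

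**Figure D3:**
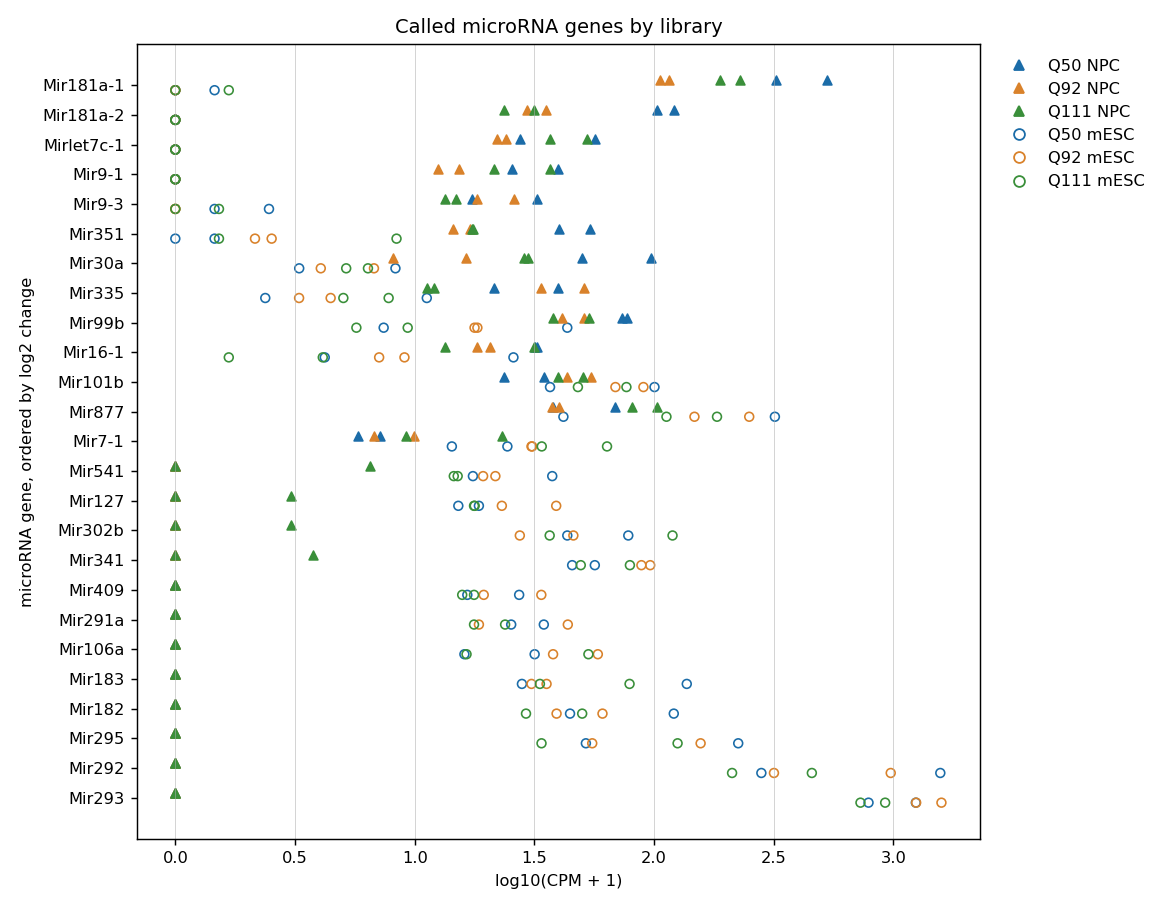
log10(CPM + 1) of the 25 called microRNA genes (vertical axis, ordered by change) in each library. Filled triangles are NPC and open circles mESC libraries, coloured by line, and triangles at 0 lie on top of each other. Genes from Mir293 up to Mir409 have no count in any of the 6 NPC libraries.

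In a stretch of chromosome 12 nearly all genes had a lower level in NPC. It runs from Meg3 through Rian to Mirg, the maternally expressed noncoding RNAs of the imprinted Dlk1-Dio3 domain, which host many microRNAs and snoRNAs. Within 200000 bases of these genes, 60 genes had a count and 59 of them a lower mean CPM in NPC, where 8810 of all 16827 genes with a count did. Summed over the 60 genes there were 47752 counts in mESC and 523 in NPC. The 14 genes tested all fell, against 25.1% of all genes tested. They include 6 with 0 to 3 counts over NPC, which passed the filter through mESC. Rian, at 109603940 to 109661716, had 752, 1273 and 2251 CPM at the lowest, median and highest in mESC and 19.6, 90.2 and 118 CPM in NPC. Its log2 change was -4.10 ± 0.45 (SE), and the groups did not overlap. The snoRNA Gm25856 had 306 to 2032 counts in a mESC library and 0 to 6 in an NPC library, a log2 change of -7.56 ± 0.75 (SE). The snoRNAs Gm25854, Gm22981 and Gm23787 changed by -7.18, -6.31 and -5.78, and Gm22981 shares 69.6% of its 30-base stretches with Gm23736, so those 2 cannot be counted apart with confidence. Mir341, which lies in Rian, had 38 to 150 counts in mESC and 1 count in all NPC libraries, a ratio of 187 (95% counting interval 33.5 to 7412). Mir409 was at 0 in NPC, at least 18.5-fold lower, and Mir127, Mir541 and Mirg held 1 to 3 counts over the NPC libraries. Mir127 lies opposite Rtl1.

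The snoRNAs of this stretch are short relatives of each other. AF357428 and AF357341, the most abundant of them left in NPC, are 82.7% identical, and they are shown with Gm25856 (GRCm38, plus strand) with the box C motif TGATGA and the box D motif CTGA in capitals.
AF357428, chr12:109679945-109680013: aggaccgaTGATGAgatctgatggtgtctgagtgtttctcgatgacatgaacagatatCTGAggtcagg
AF357341, chr12:109681519-109681593: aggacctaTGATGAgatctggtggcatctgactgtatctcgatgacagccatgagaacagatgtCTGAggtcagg
Gm25856, chr12:109682994-109683068: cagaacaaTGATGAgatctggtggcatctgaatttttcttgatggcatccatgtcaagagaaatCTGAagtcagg
Only the given strand of each transcript was searched, near its ends, and both motifs were found in 20.7% of 1511 annotated snoRNA transcripts. AF357428 had 484 to 1066 counts in a mESC library, and 10, 6, 9, 7, 38 and 48 in the NPC libraries of Q50, Q92 and Q111 in that order. AF357341 had 782 to 1314 counts in mESC, and 3, 7, 6, 12, 34 and 34 in NPC. For both, the Q111 NPC libraries lay above the other 4 NPC libraries and below every mESC library.

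Among snoRNAs outside that stretch, changes went both ways and were smaller. Of 42 box C/D snoRNAs tested, 8 rose and 15 fell, 54.8% in all, near the 50.4% over all genes, and with library totals as the scaling 10 rose and 12 fell. Snord43, an abundant snoRNA in an intron of the ribosomal protein gene Rpl3, fell by 2.16 ± 0.29 (SE) on the log2 scale, from 39316 to 171208 CPM in mESC to 18112 to 22353 CPM in NPC. Snord82, in an intron of the nucleolin gene Ncl, fell by 1.51 ± 0.22 (SE), and Snord13, a guide for acetylation of 18S ribosomal RNA, by 2.10 ± 0.28 (SE). Snord123 fell by 3.08 ± 0.51 (SE). Snord90 rose by 1.42 ± 0.29 (SE), and its NPC values of 802 to 2141 CPM did not overlap the 300 to 588 CPM of mESC. Of 65 other snoRNA and scaRNA genes tested, those of the chromosome 12 stretch included, 13 rose and 21 fell. Together they make 52.3%, near the 50.4% over all genes. Gm24339 and Scarna9, which both lie within the gene Cep295 on chromosome 9, rose, by 2.46 ± 0.20 (SE) and 1.38 ± 0.27 (SE). Scarna17 and Scarna3a, guides found in Cajal bodies, rose by 2.09 and 1.78, the first sharing 82.0% of its 30-base stretches with another gene. Of 9 H/ACA snoRNAs tested, Snora17 passed and was lower, by 0.71 on the log2 scale. With the other scalings it did not pass: with library totals none of the 9 did, and with DESeq2 size factors 1 was higher and none lower.

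Of 13 spliceosomal snRNA genes tested, 5 fell and none rose, a share of 38.5% that lies below the 50.4% over all genes. The lowest were Gm22973 (-2.40 ± 0.31, SE) and Gm23143 (-2.14 ± 0.29, SE), both with stretches shared with other genes. Gm26917, a locus next to ribosomal repeats, held 119286 to 357606 CPM in mESC and 52445 to 96764 CPM in NPC, a log2 change of -1.63 ± 0.22 (SE), while its neighbour Gm42418 rose by 1.50 ± 0.30 (SE). Of 19 mitochondrial genes 12 (63.2%) rose and none fell, against 25.3% higher over all genes. With DESeq2 size factors and library totals, 13 and 12 rose and none fell. The ribosomal RNAs mt-Rnr1 and mt-Rnr2 rose by 2.22 ± 0.26 (SE) and 1.94 ± 0.23 (SE). The transfer RNAs mt-Ti, mt-Ta, mt-Ts2, mt-Tv, mt-Tm and mt-Tf had changes between -0.38 and 0.43 that did not pass, as did mt-Nd5 with 0.79. Of 18 histone genes 8 fell and none rose, a share of 44.4% against 50.4% over all genes, for example Hist1h3a by 1.98 ± 0.36 (SE), and with library totals 6 fell. Rpph1, the RNA of RNase P, rose by 0.95 ± 0.29 (SE), and 70.3% of its 30-base stretches also occur elsewhere among annotated transcripts.

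Of 200 protein-coding genes outside the histone and mitochondrial groups, 54 rose and 32 fell, 43.0% in all against 50.4% over all genes. Of the 36 radial glia and neural progenitor genes, 35 had a count, 31 at a higher and 4 at a lower mean level in NPC. Of all 16827 genes with a count, 8017 were higher in NPC. The 4 lower ones were Sox2, a factor of both pluripotent and neural stem cells, with 13.2 CPM in mESC and 8.13 CPM in NPC, Lrp2 with 4.83 and 2.10 CPM, Sox1 with 1.21 and 0.935 CPM and Id4 with 0.250 and 0 CPM. Of the 8 members tested, which rose, Tnc, Olig1, Fabp7, Ncan and Ptprz1 had 0 to 3 counts over mESC and passed the filter through NPC. Fabp7, a fatty acid binding protein of radial glia, had 12 to 45 counts in an NPC library and 1 count in all mESC libraries, a ratio of 512 (95% counting interval 90.7 to 20352). Ptprz1, a receptor phosphatase of glial progenitors, had 13 to 44 counts in NPC and 3 over all mESC libraries, a ratio of 153 (95% counting interval 51.4 to 750). Tnc, an extracellular matrix protein of neural stem cell niches, had 6 to 46 counts in NPC and 0 in mESC, at least 139-fold higher, and Olig1, a glial lineage transcription factor, was at least 49.6-fold higher. Slc1a3, a glutamate transporter, rose by 3.52 ± 0.33 (SE), Vim, an intermediate filament, by 4.18 ± 0.37 (SE), and Ccnd2, a G1 cyclin, by 5.25 ± 0.44 (SE). Map2, a microtubule protein best known from neurons, was the 1 tested gene of 26 neuronal and glial markers, with 81 counts over NPC and 3 over mESC libraries, and passed the filter through NPC. Of the 18 markers with a count, 12 had a higher and 6 a lower mean level in NPC, among them Stmn2, another neuronal microtubule regulator, with 0 counts over NPC and 41 over mESC.

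The genes that fell included Igf2bp1, an RNA-binding protein of early development, with 14 to 40 counts in a mESC library and 1 count in all NPC libraries, a ratio of 57.7 (95% counting interval 10.2 to 2294). Slc2a3, a glucose transporter, fell by 4.19 ± 0.51 (SE), Rif1, a regulator of replication timing, by 3.24 ± 0.37 (SE), and Hsp90aa1, a chaperone with copies elsewhere in the genome, by 3.08 ± 0.40 (SE). Tet1, a 5-methylcytosine oxidase, was the 1 gene of the 30 pluripotency mRNAs with enough counts to test, and it fell by 3.36 ± 0.56 (SE). Summed over all 30, pluripotency mRNAs had 139 to 350 counts in a mESC library and 0 to 12 in an NPC library.

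The 3 lines were then compared among themselves. No change from mESC to NPC passed the test of a difference between lines among 579 genes in edgeR (48 at an unadjusted p under 0.05), and DESeq2's likelihood ratio test called 7. The count in edgeR was 5 with a replicate block, 28 with a block in each cell type, 20 without Q50 mESC replicate 1 and 11 without Q50 mESC replicate 2. Same-numbered mESC libraries deviated together (correlations of 0.445 to 0.570), with more counts in those numbered 1. Within mESC no gene of 1300 differed between lines in edgeR (28 unadjusted), nor in DESeq2, and 1 did with the replicate block. Within NPC, where replicates were closer than in mESC, 172 of 353 genes (48.7%) differed between lines, and 87 in DESeq2. With library totals as the scaling 202 differed, of which 141 were among the 172. With 2 libraries a line, differences between lines and differences between single cultures cannot be told apart. Of the 172, 125 differed at least 2-fold between the highest and the lowest line.

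Q50 was the highest line for 66 of the 172 genes, Q92 for 59 and Q111 for 47, and in 147 of the 172 both libraries of the highest line lay above the other 4. The call and this separation rest on the same values, and the separation was not counted over all 353 genes tested. Genes that did not pass, such as Cct2 and Scd2, could lie apart too. Q50 was highest for 20 of the 32 called box C/D snoRNAs (17 of them apart from the other lines), for 13 of the 17 called mitochondrial genes (10 apart) and for 2 of the 3 Y RNAs. Rny1 was 334688 and 505982 CPM in the Q50 NPC libraries on the scale of the NPC libraries alone, and 172683 to 244404 CPM in the other 4. Snord90 was 2270 and 2200 CPM in Q50 and 838 to 1015 CPM in the other 4. Mir181a-1 averaged 462 CPM in Q50, 115 in Q92 and 230 in Q111, and Mir181a-2 averaged 121, 32.9 and 29.5 CPM. The mitochondrial serine transfer RNA mt-Ts2 averaged 3694 CPM in Q50, 1097 in Q92 and 2022 in Q111 (edgeR, adjusted p = 6.41e-07).

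Q92 was the lowest line for all 17 called mitochondrial genes and the highest for 47 of 63 called protein-coding genes. Over all 172 called genes it was the lowest for 61 and the highest for 59. Peg10 and Mest, both imprinted, were highest there: Peg10 had 43 and 46 counts in Q92 NPC libraries and 7 to 11 in the other 4, and Mest had 31 and 37 counts against 1 to 14. From mESC to NPC Peg10 changed by 2.55 on the log2 scale in Q92, -0.0047 in Q50 and 0.38 in Q111. No gene passed edgeR's test of a difference between lines in this change. Without the Q92 line the change of Peg10 was 0.35 (edgeR, adjusted p = 0.528). Mir335 followed its host Mest in the order of the lines, with 28 and 17 counts in Q92 libraries, 10 and 16 in those of Q50, and only 4 and 5 in Q111. Of 9 radial glia and progenitor genes tested among NPC, the 4 that passed, Tnc, Fabp7, Nfib and Msi2, were highest in Q92, a share of those tested near the 48.7% over all genes. Ptprz1, Ncan and Olig1, which did not pass, had their highest mean in Q50, at 75.7, 30.8 and 25.5 CPM against 57.5, 10.9 and 20.3 CPM in Q92. Rny3 was also highest in Q92, unlike Rny1.

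Q111 was the highest line for all 11 histone genes tested, all of which passed, against 48.7% of all genes. Over all 172 called genes it was the highest for 47. Hist1h3b had 194 and 235 counts in Q111 NPC libraries and 44 to 96 in the other 4, and Hist1h2bh 37 and 53 against 6 to 24, though histone genes share sequence with each other. Mean CPM of mt-Rnr1 was 11191 in Q111, 7258 in Q50 and 3689 in Q92. Snord49a and Snord65, both within the gene 2410006H16Rik on chromosome 11, were both highest in Q111, at 109887 and 82376 CPM, against 63467 and 51623 in Q50 and 63999 and 47193 in Q92. Snora21 had 324 and 630 counts in Q111 and 83 to 266 in the other 4. Among the NPC lines mt-Ts2, mt-Rnr1 and Snord90 had the smallest p-values, and the other genes named here were chosen after their values were seen.

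**Figure D4:**
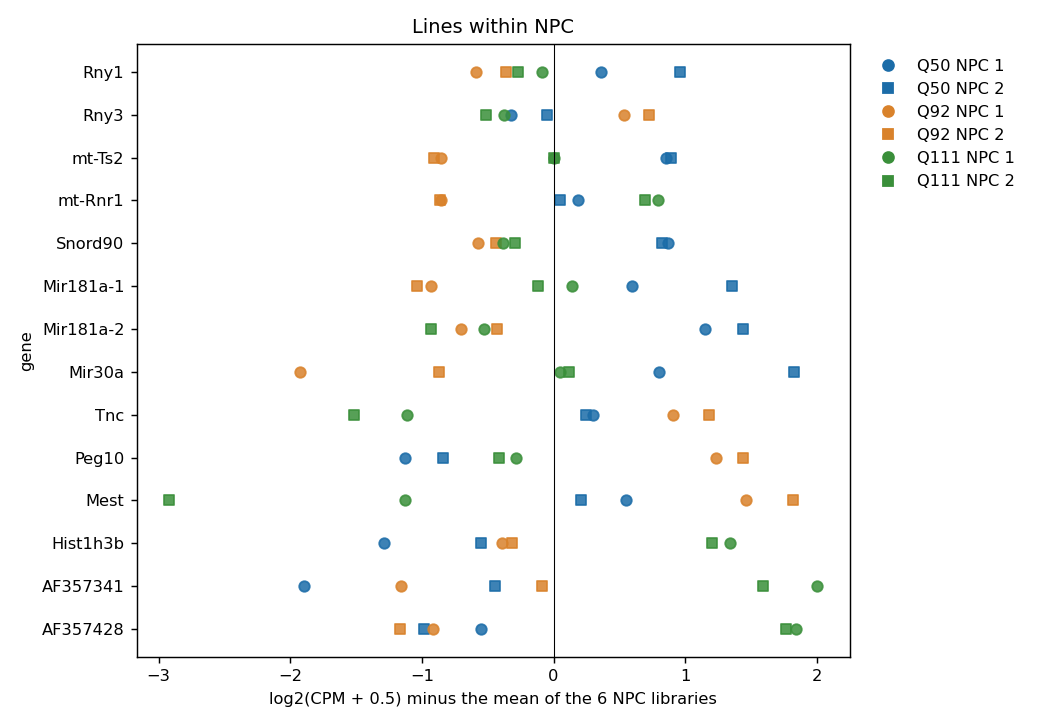
Level of 14 called genes in each NPC library, as log2(CPM + 0.5) minus the mean over the 6 NPC libraries (horizontal axis). Colours mark lines and shapes the 2 libraries of a line. Q50 libraries lie at the right for Snord90 and the Mir181a genes, Q92 libraries for Tnc, Peg10 and Mest, and Q111 libraries for Hist1h3b, AF357341 and AF357428.

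Finally, the change on differentiation in the expanded lines was set against that in the reference lines, to ask where an expanded repeat goes with another change. Against WT, no gene of 757 differed in edgeR (22 at an unadjusted p under 0.05), nor in DESeq2. Against KO, no gene of 647 differed (16 unadjusted), nor in DESeq2. These fits do not show that the changes were alike: the median half-width of the 95% interval was 1.60 on the log2 scale against WT and 1.57 against KO. For Rny1 the change in the expanded lines exceeded that in WT by 0.82 (95% interval -0.51 to 2.15) and that in KO by 1.09 (-0.23 to 2.41).

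Against Q20, 20 of 663 genes (3.02%) differed, and all 20 had a lower change in the expanded lines. In Q20 itself 18 of the 20 were also lower in NPC than in mESC. Of the 20, 11 lie in the stretch of chromosome 12 from Meg3 to Mirg, in which 17 genes were tested. MicroRNA genes make up 8 of the 20, and of these Mir341, Mir409 and Mir127 also lie in that stretch. The number of microRNA genes among the 663 was not counted. Mir293 had 51 and 56 counts in the Q20 NPC libraries and 0 in the 6 expanded NPC libraries. AF357428 had 513 and 551 counts in Q20 NPC and 6 to 48 in expanded NPC, and Mir341 39 and 47 against 0 and 1. Igf2bp1 had 11 and 15 counts against 0 and 1, and Zdbf2, an imprinted gene, 14 and 10 against 0. For 19 of the 20 genes both Q20 NPC libraries lay above all 6 expanded NPC libraries. The 20 genes were called on these same values, and this separation was not counted over all 663 genes. The WT and KO NPC libraries were low as well: Mir293 had 0 counts in all 4 of them, Mir341 0 or 1, and AF357428 9 to 28. The ES-cell microRNA genes summed to 201 and 233 counts in the Q20 NPC libraries, against 0 or 1 in expanded NPC. Mir293, Mir292 and Mir302b belong both to that list and to the 20 genes, so this sum is not a separate observation. Mir302b alone held 123 and 138 of these Q20 counts. In mESC it averaged 729 CPM in Q20 and 36.9 to 87.0 CPM in the expanded lines. Slc2a3, also among the 20 genes, went the other way in mESC, with 15.4 CPM in Q20 and 27.5 to 40.3 CPM in those lines. The pluripotency mRNAs, which are not among the 20 genes, summed to 30 and 31 counts in Q20 NPC and 0 to 12 in expanded NPC. The part of undifferentiated cells in the result was not tested. Leaving out either Q20 mESC library lowered the count to 8, and leaving out Q20 NPC replicate 1 lowered it to 12.

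**Figure D5:**
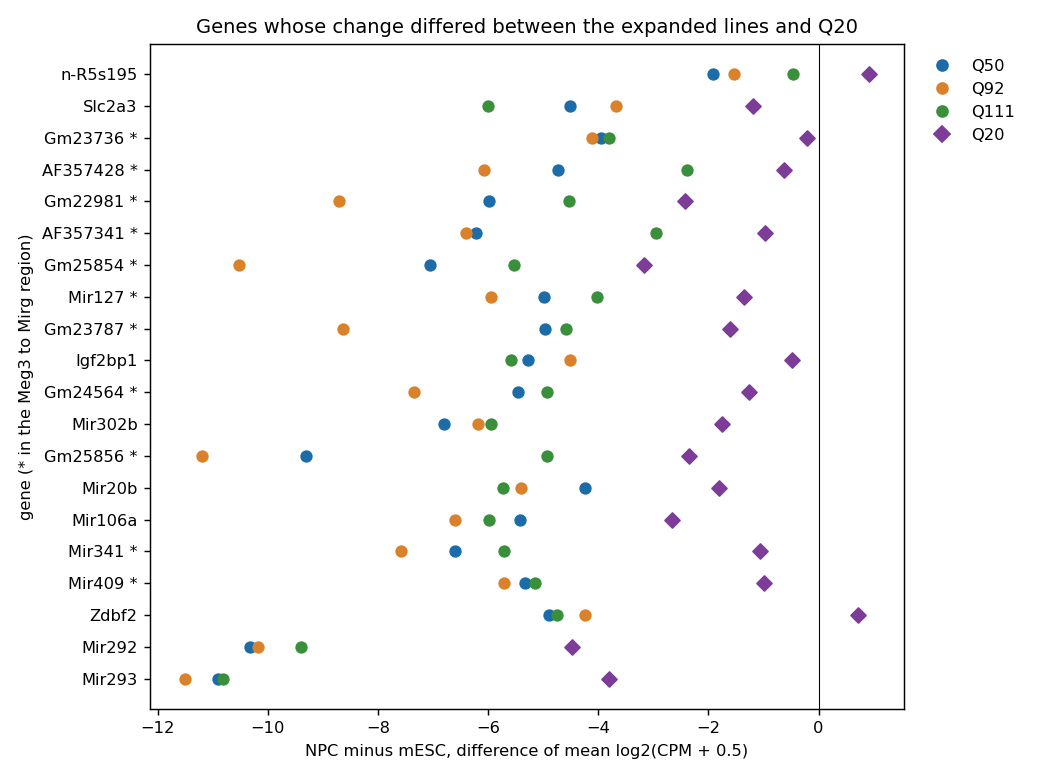
Change from mESC to NPC, as a difference of mean log2(CPM + 0.5), in each expanded line (circles) and in Q20 (diamonds) for the 20 genes that differed. The Q20 diamond lies to the right of the 3 circles in each row, and a star marks the 11 genes of the chromosome 12 stretch.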

How the data were processed

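Gene counts from small RNA libraries were used as the authors deposited them: raw read counts for 55335 Ensembl genes, not normalized. The submitters' processing notes name CASAVA 1.8, STAR, HTSeq and the build GRCm38.p6, without roles or order; trimming, strand, the treatment of reads with several matches and the annotation release are not given in the sources used here. Names and positions came from GENCODE M21, which matched 55154 IDs, and 181 unmatched IDs held 57 counts.

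Genes were filtered with filterByExpr (minimum count 10, minimum total 15), scaled by TMM and tested with edgeR 4.0.16 (R 4.3.3), quasi-likelihood test, Benjamini-Hochberg adjustment, threshold 0.05. The 6 NPC and 6 mESC libraries were fitted with cell type and line. Reference comparisons used the interaction of cell type with line group. DESeq2 1.42.0, limma 3.58.1 (voom), other scalings and filters, and leaving out libraries were alternatives. Counting intervals and floors (3 counts) cover counting error only. Class shares were tested by exact permutation within lines. Scripts were tested on simulated data. Per-line changes are differences of mean log2(CPM + 0.5).

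Genes were named by a rule: adjusted p under 0.05, absolute log2 change at least 1, mean at least 10 CPM and groups that do not overlap, then the 4 smallest p-values per direction in each RNA class (between lines or against references, the 3 smallest). Members of the gene lists could be named too, and any other gene was chosen after its values were seen. The comparison, members and lists were chosen with earlier results of these data known. The listed gene AF357399 lies on chromosome 7, so the chromosome 12 stretch was taken by coordinates. Deviations of same-numbered libraries from their group means correlated at 0.445 to 0.570 between mESC lines, -0.063 to 0.076 between NPC lines and -0.116 to 0.188 between cell types, so numbers pair the libraries within mESC but not within NPC or across cell types. The fits without the block are given, with blocked values where they change a count by over 1.5 times. Depth was 342022 to 2360434 counts per library.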

Additional observations from a re-analysis of the deposited data

Results flagged for a closer look

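In 100 sets of 6 libraries, the gap between an extreme library and its nearest neighbour was compared with the range of the set, with Dixon's 95% critical value as the limit. Chance passes about 1 in 20 groups. For 5 genes the gap was the whole range, a ratio of 1, because a single library held a count: Gm3764 in Q50 mESC replicate 2, Fabp7 in Q111 mESC replicate 2, Mir341 in Q111 NPC replicate 1, Mir302b in Q111 NPC replicate 2 and Igf2bp1 in Q92 NPC replicate 1. Among mESC libraries, the highest was Q50 replicate 1 for Gm23143 (ratio 0.719, 890 against 422 CPM), Q50 replicate 2 for Scarna9 (0.685, 367 against 200.4 CPM), Q92 replicate 2 for Vim (0.697) and Q92 replicate 1 for Slc2a3 (0.675). Among NPC libraries, it was Q111 replicate 2 for Gm22973 (0.694) and Q111 replicate 1 for Gm25854 (0.704). The share of other long noncoding genes was 0.914% in Q50 mESC replicate 1 and at most 0.473% in the other 5 mESC libraries (ratio 0.828).

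The change from mESC to NPC differed between the expanded lines and Q20 for 20 genes by the interaction test in edgeR. Among them the fitted difference was -9.33 for Mir293, -6.25 for Mir341 and -5.09 for Igf2bp1 on the log2 scale. These 3 have 0 or 1 count over the expanded NPC libraries, so the fitted differences depend on the prior count.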

How the results depend on the processing

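The count of 215 genes was within 1.5 times under the other scalings tried, DESeq2 (217), voom (216) and the omission of single libraries (208 to 304). It became 1087 with no filter on low counts, 387 with all 24 libraries fitted, 120 with counts thinned to the smallest total, 127 without the Q92 line, 358 with libraries numbered 1 only and 124 with those numbered 2 only. MicroRNA genes fitted alone gave 26 of 28. With the replicate block it was 224, and 245 with a block in each cell type. For the change by line the replicate block gave 5 genes in place of 0 and a block in each cell type 28, for lines within mESC it gave 1 in place of 0, within NPC 163 in place of 172, and against Q20 23 in place of 20. The blocks within mESC, within NPC and in each cell type for the change by line were chosen after seeing the data, as were the fits of libraries with 1 number only. The change by line gave 1 gene without the filter, 7 in DESeq2 and 0 to 20 when single libraries were left out: 20 without Q50 mESC replicate 1 and 11 without Q50 mESC replicate 2. Lines within NPC gave 80 without the filter and 87 in DESeq2, and lines within mESC 1 without the filter. The count against Q20 was 8 to 25 when single libraries were left out. The cause of these differences was not tested, beyond the number of genes or libraries that each setting takes in. Of 1744 alternative values for 67 genes, 1717 kept direction and side of the threshold, 27 no longer passed and 0 changed direction. Those 27 belong to Peg10, Snord90, Scarna9, Scarna3a, Rpph1, Notch1, Snhg5 and Cct6a. For genes with 0 to 3 counts in a cell type, depth limits the fold to a bound or a wide interval.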
